A study of Homo sapiens with 12 samples.

Results

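The genes described here are 9 growth arrest and stress recovery genes, most of them known targets of the tumour suppressor p53, together with the GADD45 gene GADD45B: GADD45A, GADD45B, CDKN1A, MDM2, BTG2, SESN1, TP53INP1, PLK3 and ZMAT3. They were taken as a list of gene names, drawn up with earlier results of these data known, and each was found by its symbol among the 48162 gene identifiers of the read count table. The cells were T84, an established line from a human colon carcinoma that forms polarised monolayers resembling the gut lining. Confluent T84 monolayers in multiwell plates were moved out of growth medium into Hanks buffered saline and held there at an acid or a near-neutral pH. The 4 groups of 3 libraries each were pH 6.0 for 6 h, pH 7.4 for 6 h, pH 6.0 for 3 h and pH 7.4 for 3 h. All 12 libraries therefore came from cells in saline, and no library from cells in growth medium is part of the comparison. The line stands for a single tumour. Since the labels do not tell whether a group's 3 libraries were separate cultures, the p-values below reflect library-to-library spread alone, part or all of which may be technical.

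As background, p53 is a transcription factor held at low levels by MDM2, a ubiquitin ligase that is itself a p53 target, so that p53 raises its own inhibitor. When p53 is released it switches on genes that stop the cell cycle, repair DNA, limit oxidative damage or trigger death. CDKN1A encodes p21, which blocks cyclin-dependent kinases and, through the DREAM complex, lowers the transcription of cell cycle genes. GADD45A and GADD45B encode small acidic proteins that bind the stress kinase MAP3K4, the CDK1 and cyclin B1 complex and PCNA. GADD45A is a p53 target, whereas GADD45B is known mainly as a gene induced by NF-kB, TGF-beta and other stress signals. GADD45A, CDKN1A, BTG2 and PLK3 can also be induced without p53.

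Libraries held between 15383041 and 20525403 counts at pH 6.0 and 6 h, 16574741 to 18921141 at pH 7.4 and 6 h, 13912532 to 18205946 at pH 6.0 and 3 h, and 16865263 to 24331032 at pH 7.4 and 3 h. Summed over the 12 listed markers of intestinal epithelium, none of them at 0 in a group, levels were 10277 to 13669 CPM (counts scaled to library size) per library. Summed levels reached 33.6 CPM for 10 fibroblast markers, 12.8 CPM for 10 leukocyte markers and 13.7 CPM for the 7 endothelial markers matched, and the B cell marker MS4A1 was at 0 in all 4 groups. The epithelial sum was 12581 to 13669 CPM at pH 6.0 and 6 h, against 10277 to 10524 CPM at pH 7.4 and 6 h, so it moved with pH at the later time. Mitochondrially encoded genes took 7.14% to 7.40% of counts at pH 6.0 and 6 h, against 7.97% to 8.97% at pH 7.4 and 6 h. The part of either difference in the results was not tested.

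Every member passed the filter on low counts. A gene was called changed where edgeR's quasi-likelihood test gave a Benjamini-Hochberg adjusted p under 0.05 over all 15630 genes tested. At 6 h, 7 of the 9 members differed between pH 6.0 and pH 7.4, of which 5 were higher and 2 lower, while 47% of all genes tested were called in that comparison (21.9% higher and 25.1% lower). At 3 h, 3 members differed, 2 higher and 1 lower, against 18.8% of all genes (9.53% higher and 9.26% lower). In 8 members at 6 h no pH 6.0 library lay within the pH 7.4 range or the reverse, which was so for 56.6% of all genes, and at 3 h the groups were apart in 3 members and in 33% of all genes. The median log2 fold change of the 9 members was 0.40 at 6 h and 0.27 at 3 h, and that of all genes was -0.00 at both times. In bulk RNA a change in the RNA per cell and a change in the share of cells that make it cannot be told apart.

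**Figure D1:**
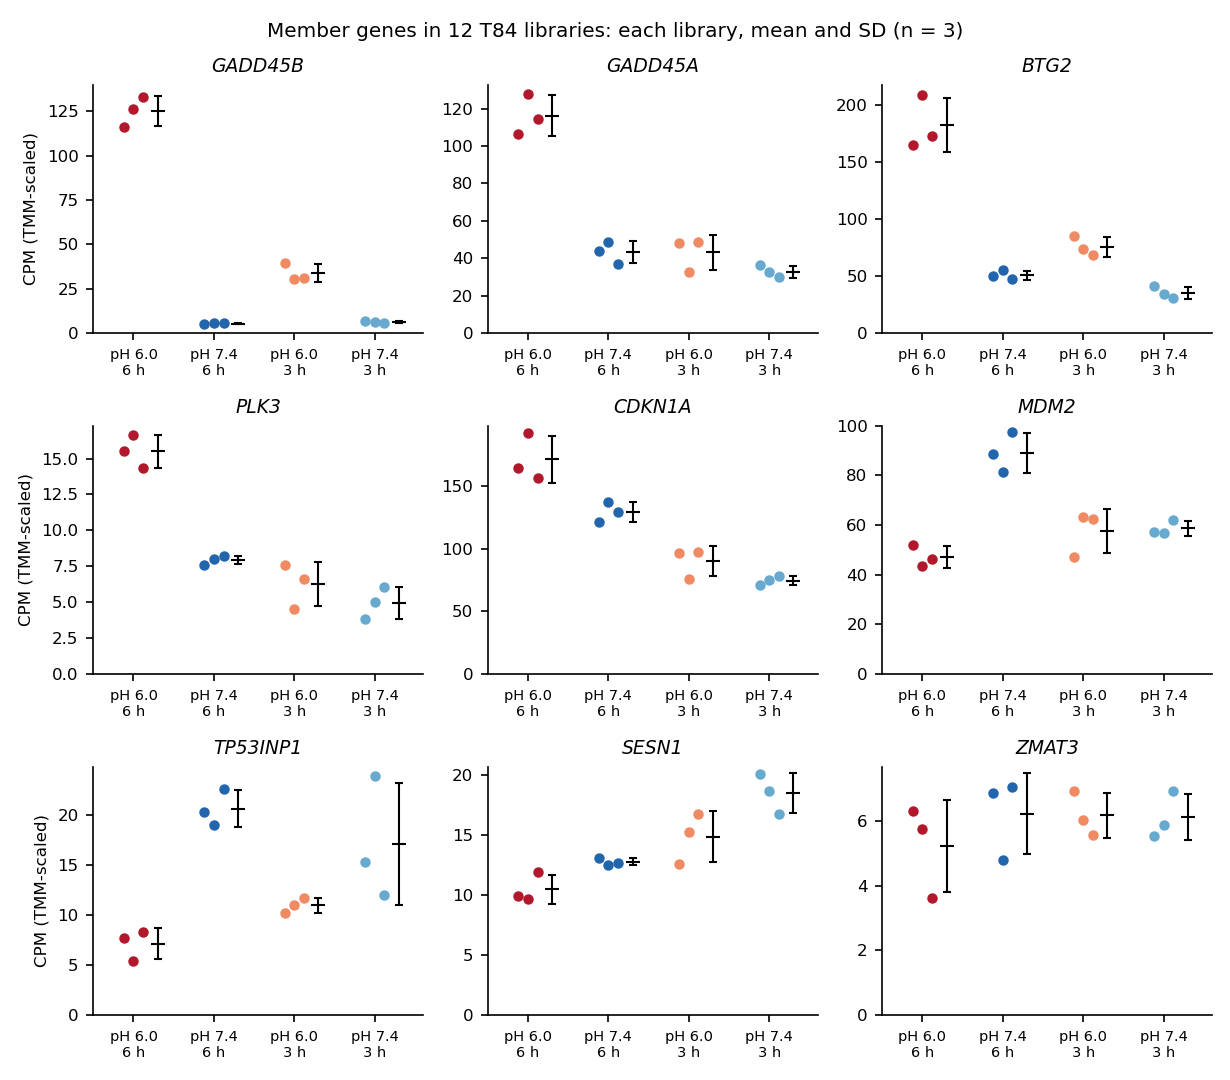
TMM-scaled CPM of the 9 members (y axes, each starting at 0) in the 4 groups of 3 libraries, in which each point is a library and the bar beside it the mean and SD. GADD45B stood at 116 to 133 CPM at pH 6.0 and 6 h and at 4.88 to 5.66 CPM at pH 7.4 and 6 h. On average MDM2, TP53INP1, SESN1 and ZMAT3 were lowest at pH 6.0 and 6 h, and the 4 groups of ZMAT3 overlapped.

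At 6 h GADD45B and BTG2 had the largest excess in acid, CDKN1A had a smaller one, MDM2 was lower in acid and SESN1 was not called. The sequences upstream of the transcript starts of these members, whose pH differences varied, are shown. They are the 250 bases before a start in RefSeq's GRCh38.p14 annotation, which is not the build of the counts, and windows were read for 7 of the 9 members, not for GADD45A or TP53INP1. Capitals mark matches on either strand to 8 motifs: TGACG (the core of a CRE), TGAGTCA (AP-1), GGGCGG (GC box), CACGTG (E-box), TATAAA (core promoter box), and a p53 half-site, a CArG box and an NF-kB site, which use degenerate letters. The GADD45B window is chr19:2475877-2476126 (plus strand), the BTG2 window chr1:203305269-203305518 (plus), the CDKN1A window chr6:36678464-36678713 (plus) and the SESN1 window, 1 of 3 for that gene, chr6:109008989-109009238 (minus). The MDM2 window shown, 1 of 4, is chr12:68808767-68809016 (plus), upstream of the more 3′ starts, from which p53-dependent MDM2 transcripts are known to begin.
GADD45B: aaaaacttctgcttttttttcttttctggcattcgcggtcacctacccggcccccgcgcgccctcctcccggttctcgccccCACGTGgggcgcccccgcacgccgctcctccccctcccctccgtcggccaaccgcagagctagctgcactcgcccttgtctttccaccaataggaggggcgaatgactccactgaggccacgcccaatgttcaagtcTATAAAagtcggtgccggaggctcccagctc
BTG2: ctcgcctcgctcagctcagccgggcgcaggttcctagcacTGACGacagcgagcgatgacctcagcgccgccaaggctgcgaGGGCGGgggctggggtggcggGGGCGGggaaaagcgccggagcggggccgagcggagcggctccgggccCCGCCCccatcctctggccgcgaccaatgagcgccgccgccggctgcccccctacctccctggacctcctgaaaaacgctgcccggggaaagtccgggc
CDKN1A: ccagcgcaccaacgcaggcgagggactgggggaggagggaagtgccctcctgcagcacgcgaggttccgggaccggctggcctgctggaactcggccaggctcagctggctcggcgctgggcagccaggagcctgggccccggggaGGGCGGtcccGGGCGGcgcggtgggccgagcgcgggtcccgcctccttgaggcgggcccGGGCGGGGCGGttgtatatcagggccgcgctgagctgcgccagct
MDM2: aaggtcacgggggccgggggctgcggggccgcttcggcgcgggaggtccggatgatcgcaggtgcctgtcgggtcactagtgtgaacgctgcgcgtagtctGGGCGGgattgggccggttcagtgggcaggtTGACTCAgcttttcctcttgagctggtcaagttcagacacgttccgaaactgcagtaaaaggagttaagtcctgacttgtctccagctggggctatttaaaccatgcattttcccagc
SESN1: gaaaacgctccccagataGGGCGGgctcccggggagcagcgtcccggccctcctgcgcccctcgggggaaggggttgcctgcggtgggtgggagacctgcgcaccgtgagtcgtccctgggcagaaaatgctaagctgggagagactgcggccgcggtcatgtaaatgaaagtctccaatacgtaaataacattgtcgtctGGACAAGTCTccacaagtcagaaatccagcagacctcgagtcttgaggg

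GADD45B held an E-box at 168 to 163 bases before its start and TATAAA at 31 to 26 bases, motifs found in 6.34% and 10.7% of the 35116 windows of the same length. BTG2 held TGACG at 210 to 206 bases (21.2% of windows) and 3 GC boxes (42.6% of windows). CDKN1A held 4 GC boxes, of which the 2 nearest the start share 1 base. MDM2 held TGAGTCA on the minus strand at 118 to 112 bases (4.2% of windows) and a GC box at 149 to 144 bases. In SESN1 the p53 half-site lay at 49 to 40 bases (5.57% of windows). Another SESN1 window held 2 matches of TGACG and 5 GC boxes, and the remaining one 7 GC boxes, so TGACG was found in windows of BTG2 and SESN1. The windows of PLK3 and ZMAT3 held at most a GC box, and no CArG box (1.16% of windows) or NF-kB site (5.21%) was found in any member's window. A match is a run of letters and not a binding site. The search allowed no mismatch, so a p53 element that departs from the pattern by a base stays unmarked, also within the MDM2 window shown. More distant p53 elements lie outside these short windows.

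GADD45B had the largest pH difference of the members. At 6 h its level was 116, 126 and 133 CPM in the pH 6.0 libraries, against 4.88, 5.43 and 5.66 CPM in the pH 7.4 libraries. The 3 h values were 39.4, 30.7 and 30.9 CPM at pH 6.0, against 6.93, 6.43 and 5.70 CPM at pH 7.4. No library of one pH reached the range of the other at either time, and all 4 groups stood apart from each other. The log2 fold change of pH 6.0 over pH 7.4 was 4.55 ± 0.12 (SE, adjusted p = 1.3e-17) at 6 h, a 23.5-fold difference, and 2.40 ± 0.12 (adjusted p = 2.34e-12) at 3 h, a 5.27-fold difference. The pH difference was larger at 6 h than at 3 h by 2.16 ± 0.17 on the log2 scale (adjusted p = 2.95e-08). Within pH 6.0, GADD45B was 3.71-fold higher at 6 h than at 3 h (log2 fold change 1.89 ± 0.10, adjusted p = 6.44e-12). At pH 7.4 the same time difference was -0.26 ± 0.14 on the log2 scale and did not pass the test (adjusted p = 0.157), although the libraries of the 2 times did not overlap.

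GADD45A, its close relative, had 106, 128 and 114 CPM at pH 6.0 and 6 h, against 44.1, 48.5 and 37.0 CPM at pH 7.4 and 6 h. At 3 h GADD45A stood at 48.4, 32.4 and 48.9 CPM at pH 6.0, against 36.2, 32.5 and 29.7 CPM at pH 7.4. The 6 h acid libraries stood above all 9 others, and the 3 h groups overlapped because the second pH 6.0 library lay within the pH 7.4 range. GADD45A was 2.69-fold higher at pH 6.0 at 6 h (log2 fold change 1.43 ± 0.14, adjusted p = 1.86e-07). At 3 h the log2 difference of 0.40 ± 0.14 did not pass the test (adjusted p = 0.0546, 95% interval 0.11 to 0.69). It passed without that second pH 6.0, 3 h library, at 0.56 (adjusted p = 0.00226), and without the third pH 7.4, 6 h library, at a nearly unchanged 0.40. It also passed in DESeq2, at 0.40 (adjusted p = 0.0357), with a filter of 5 CPM, at 0.43, with a gene length spline, at 0.44, and with no filter, at 0.36. The pH difference at 6 h exceeded that at 3 h by 1.03 ± 0.19 (adjusted p = 0.000948). GADD45A was higher at 6 h than at 3 h in acid saline by 1.42 ± 0.14 on the log2 scale (adjusted p = 7.62e-07). In neutral saline it was higher at 6 h by 0.39 ± 0.14 (adjusted p = 0.0384). The neutral call was lost with total counts as the scaling, at 0.32 (adjusted p = 0.0846), and without any one of the 3 pH 6.0, 6 h libraries, the second or the third pH 7.4, 3 h library or the first or second pH 7.4, 6 h library, with values of 0.30 to 0.39.

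The third family member, GADD45G, was near the lower limit of detection, at 1.37 to 2.46 CPM at pH 6.0 and 6 h, against 0.233 to 0.806 CPM at pH 7.4 and 6 h. At 6 h it was higher at pH 6.0 by 1.62 ± 0.45 on the log2 scale (adjusted p = 0.00474), with a 95% interval of 0.70 to 2.55. GADD45GIP1, which encodes a nuclear-encoded protein that binds the GADD45 proteins and belongs to the mitochondrial ribosome, was higher by 0.43 ± 0.16 (adjusted p = 0.0279). The ratio of GADD45B to GADD45A in RPKM, the read count scaled to gene length and library size, which allows levels of different genes to be compared, averaged 0.806 ± 0.066 at pH 6.0 and 6 h, against 0.0934 ± 0.018 at pH 7.4 and 6 h (SD, n = 3 each). The 3 h ratio averaged 0.594 ± 0.117 at pH 6.0 and 0.144 ± 0.0028 at pH 7.4 (SD, n = 3 each).

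BTG2, whose window holds TGACG and GC boxes, encodes an antiproliferative protein that recruits the mRNA deadenylation machinery, and its groups ranked in the same order as those of GADD45A. It had 165, 209 and 172 CPM at pH 6.0 and 6 h, against 49.8, 55.2 and 47.5 CPM at pH 7.4 and 6 h. At 3 h BTG2 had 85.3, 74.1 and 68.0 CPM at pH 6.0, against 41.3, 34.0 and 30.9 CPM at pH 7.4. All 4 groups stood apart, and both acid groups lay above both neutral ones. BTG2 was 3.58-fold higher at pH 6.0 at 6 h (log2 fold change 1.84 ± 0.11, adjusted p = 3.97e-11) and 2.14-fold higher at 3 h (1.09 ± 0.11, adjusted p = 1.04e-06). The 2 pH differences themselves differed by 0.75 ± 0.16 (adjusted p = 0.00164). Between 3 h and 6 h BTG2 rose by 1.26 ± 0.11 on the log2 scale at pH 6.0 (adjusted p = 3.43e-08) and by 0.52 ± 0.11 at pH 7.4 (adjusted p = 0.00181).

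CDKN1A, which encodes p21, was higher at 6 h than at 3 h in both media and higher in acid at 6 h. Its level was 165, 192 and 157 CPM at pH 6.0 and 6 h, against 122, 137 and 129 CPM at pH 7.4 and 6 h. The 3 h levels were 96.6, 76.3 and 97.3 CPM at pH 6.0, against 70.8, 74.7 and 78.3 CPM at pH 7.4. Each 6 h library exceeded each 3 h library of either pH, and the 3 h pH groups overlapped. At 6 h CDKN1A was 1.32-fold higher at pH 6.0 (log2 fold change 0.40 ± 0.09, adjusted p = 0.00129). At 3 h the log2 difference of 0.27 ± 0.10 missed the threshold (adjusted p = 0.0508). It passed without the second pH 6.0, 3 h library, at 0.38, without the second pH 6.0, 6 h library, at 0.28, and with 3 other scalings or filters, at 0.28 to 0.37. With time CDKN1A rose 1.90-fold at pH 6.0 (0.93 ± 0.10, adjusted p = 2.35e-07) and 1.74-fold at pH 7.4 (0.80 ± 0.10, adjusted p = 2.17e-06). The difference between the pH effects at the 2 times was 0.13 ± 0.14 (adjusted p = 0.509), with a 95% interval of -0.15 to 0.41.

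PLK3, a stress-responsive polo-like kinase, was expressed at a low level, with 15.6, 16.6 and 14.3 CPM at pH 6.0 and 6 h, against 7.62, 8.004 and 8.21 CPM at pH 7.4 and 6 h. At 3 h PLK3 had 7.58, 4.56 and 6.64 CPM at pH 6.0, against 3.82, 5.04 and 6.05 CPM at pH 7.4, and these groups overlapped. The 6 h acid libraries stood above all others. PLK3 was 1.95-fold higher at pH 6.0 at 6 h (log2 fold change 0.97 ± 0.16, adjusted p = 5.01e-05), while the 3 h difference of 0.37 ± 0.18 did not pass (adjusted p = 0.17). The pH differences at the 2 times differed by 0.60 ± 0.25, which did not pass either (adjusted p = 0.0702). That difference passed without the first pH 6.0, 3 h library, at 0.81, without the first pH 7.4, 3 h library, at 0.78, and with no filter on low counts, at 0.64. PLK3 rose with time by 1.30 ± 0.17 on the log2 scale at pH 6.0 (adjusted p = 7.03e-06) and by 0.70 ± 0.18 at pH 7.4 (adjusted p = 0.00497).

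MDM2, the ubiquitin ligase of the p53 feedback loop, was lower in acid at 6 h. Its level was 52.1, 43.4 and 46.3 CPM at pH 6.0 and 6 h, against 88.7, 81.3 and 97.4 CPM at pH 7.4 and 6 h. The shorter exposure gave 47.2, 63.3 and 62.4 CPM at pH 6.0, against 57.2, 56.7 and 62.1 CPM at pH 7.4. The neutral 6 h libraries stood above all others, and the 3 remaining groups overlapped with their neighbours in rank. At 6 h MDM2 was lower at pH 6.0 by a log2 fold change of -0.92 ± 0.11 (adjusted p = 3.05e-07), a level 1.89-fold below that at pH 7.4. At 3 h the log2 difference was -0.03 ± 0.10 (adjusted p = 0.887), with a 95% interval of -0.24 to 0.19. The pH effects at the 2 times differed by -0.89 ± 0.15 (adjusted p = 0.000179). With time MDM2 rose 1.52-fold at pH 7.4 (log2 fold change 0.60 ± 0.10, adjusted p = 0.000136). At pH 6.0 its time difference was -0.29 ± 0.11 (adjusted p = 0.0625), which passed without the first pH 6.0, 3 h library, at -0.38, with total counts as the scaling, at -0.37, and with no filter, at -0.27.

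TP53INP1, a p53-induced nuclear protein that takes part in autophagy and apoptosis, had 7.74, 5.36 and 8.26 CPM at pH 6.0 and 6 h, against 20.3, 19.0 and 22.6 CPM at pH 7.4 and 6 h. At 3 h TP53INP1 had 10.2, 11.01 and 11.7 CPM at pH 6.0, against 15.3, 23.9 and 12.04 CPM at pH 7.4. Both acid groups lay below both neutral ones, but at 3 h the highest acid and the lowest neutral library were close, at 11.7 and 12.04 CPM. At 6 h TP53INP1 was lower at pH 6.0 by a log2 fold change of -1.55 ± 0.21 (adjusted p = 1.6e-05), which is 2.93-fold. At 3 h it was lower by -0.64 ± 0.20 (adjusted p = 0.0352), and this value rested largely on the second pH 7.4 library. Without that library it was -0.33 (adjusted p = 0.148). The 3 h call was also lost without any one of the 3 pH 6.0, 3 h libraries, the first pH 7.4, 3 h library or the first pH 7.4, 6 h library, at -0.60 to -0.73, in a fit of only the 2 groups, at -0.63 (adjusted p = 0.0612), and with the replicate number as a block, at -0.64 (adjusted p = 0.0639). The pH effects at the 2 times differed by -0.91 ± 0.29 (adjusted p = 0.0288). This too was lost without any one of 7 libraries, at -0.68 to -0.91: the second or the third pH 6.0, 3 h, the second pH 6.0, 6 h, the first or the third pH 7.4, 3 h, and the first or the third pH 7.4, 6 h. It was lost as well with the gene length spline, at -0.70 (adjusted p = 0.0896), and with the replicate number as a block, at -0.91 (adjusted p = 0.0513). With time the log2 difference was -0.64 ± 0.22 at pH 6.0 (adjusted p = 0.0541) and 0.27 ± 0.19 at pH 7.4 (adjusted p = 0.314). The acid value passed without the second or the third pH 7.4, 3 h library, at -0.63 and -0.62, in DESeq2, at -0.61 (adjusted p = 0.0258), with total counts, at -0.72 (adjusted p = 0.0386), in a fit of only the groups compared, at -0.62 (adjusted p = 0.0112), and with no filter, at -0.62 (adjusted p = 0.000697). The neutral value passed without the second, at 0.58.

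SESN1, a sestrin that restrains the growth-promoting kinase complex mTORC1, had 9.92, 9.66 and 11.9 CPM at pH 6.0 and 6 h, against 13.1, 12.5 and 12.7 CPM at pH 7.4 and 6 h. The 3 h libraries had 12.6, 15.2 and 16.8 CPM at pH 6.0, against 20.1, 18.6 and 16.7 CPM at pH 7.4. The pH groups stood apart at 6 h and overlapped at 3 h. Neither pH difference passed the test, with log2 values of -0.29 ± 0.13 at 6 h (adjusted p = 0.0793) and -0.32 ± 0.12 at 3 h (adjusted p = 0.0725). The 6 h difference passed with total counts as the scaling, at -0.33 (adjusted p = 0.0488). With time SESN1 fell at both pH values, by a log2 fold change of -0.50 ± 0.13 at pH 6.0 (adjusted p = 0.00886) and -0.54 ± 0.12 at pH 7.4 (adjusted p = 0.00232). The acid call was lost without the third pH 6.0, 3 h library, at -0.41, without the first pH 6.0, 6 h library, at -0.44, and without the second, at -0.43. ZMAT3, a zinc finger RNA-binding protein, was the member with the lowest RPKM. It had 6.32, 5.76 and 3.62 CPM at pH 6.0 and 6 h, against 6.86, 4.78 and 7.06 CPM at pH 7.4 and 6 h, and 5.57 to 6.93 CPM at pH 6.0 and 3 h, against 5.55 to 6.93 CPM at pH 7.4 and 3 h. Its 4 groups overlapped, and its fold changes passed in none of the 5 comparisons. For pH the log2 difference was -0.24 ± 0.20 at 6 h (95% interval -0.65 to 0.17) and 0.02 ± 0.19 at 3 h (95% interval -0.38 to 0.43).

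**Figure D2:**
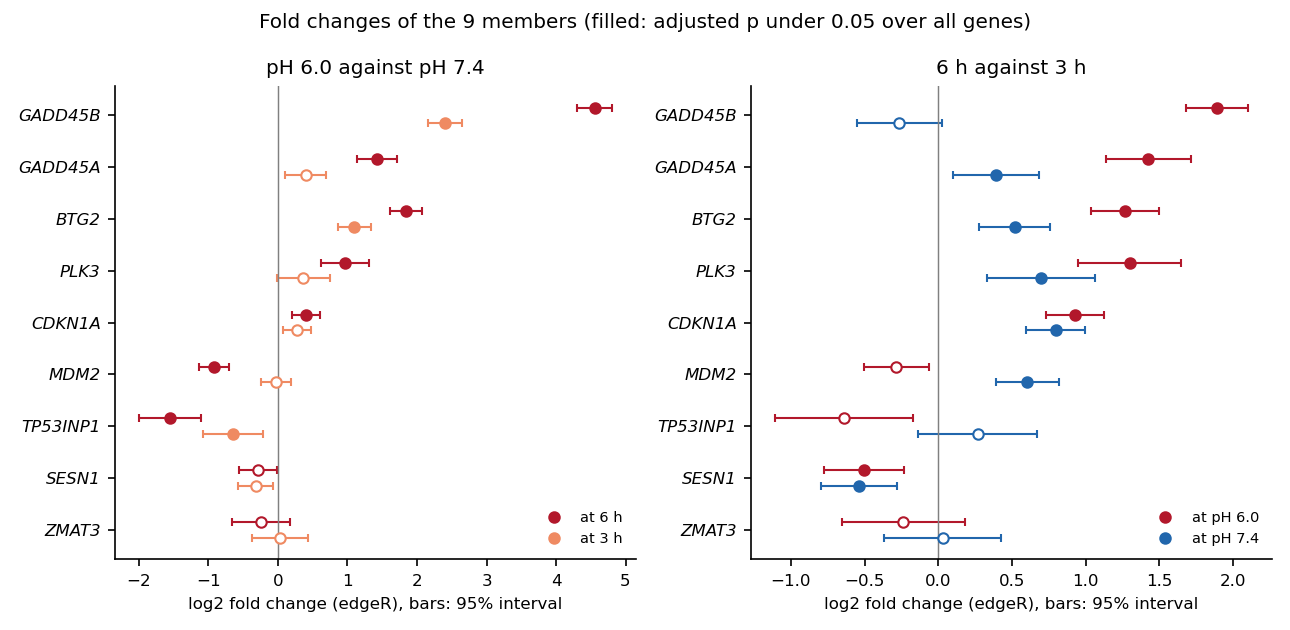
Log2 fold changes of the 9 members with 95% intervals (x axes), for pH 6.0 against pH 7.4 at 6 h and at 3 h on the left and for 6 h against 3 h at pH 6.0 and at pH 7.4 on the right. Filled points passed an adjusted p of 0.05 over all genes. GADD45B lies farthest to the right for pH, and MDM2 and TP53INP1 lie left of 0 for pH at 6 h.

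Over time, 6 of the 9 members differed between 6 h and 3 h at pH 6.0, where 19.5% of all genes were called (8.64% higher and 10.9% lower), and 6 differed at pH 7.4, where 31.6% were (17.2% higher and 14.4% lower). At each pH 5 members were higher and SESN1 was lower at 6 h. GADD45A, BTG2, PLK3 and CDKN1A were higher in both media, GADD45B passed the test at pH 6.0 and MDM2 at pH 7.4. The libraries of the 2 times did not overlap in 7 members in either medium, against 35.6% of all genes at pH 6.0 and 43.4% at pH 7.4. The 2 pH comparisons and the 2 time comparisons share libraries, so their values are given side by side and not as independent evidence. The pH effects at the 2 times differed in 5 members, larger at 6 h for GADD45B, GADD45A and BTG2 and more negative at 6 h for MDM2 and TP53INP1, against 29.4% of all genes (13.1% higher and 16.3% lower).

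Levels can be compared between genes as RPKM. At pH 6.0 and 6 h GADD45A averaged 74.4 RPKM, CDKN1A 72.5, BTG2 64.3 and GADD45B 59.7, while MDM2 averaged 6.13, PLK3 5.96, SESN1 2.86, TP53INP1 1.21 and ZMAT3 0.533. The leading 4 genes formed a group at a similar level, well above the other 5. At pH 7.4 and 6 h CDKN1A averaged 56.5 RPKM, GADD45A 28.5, BTG2 18.5, MDM2 11.9, TP53INP1 3.61, SESN1 3.59, PLK3 3.15, GADD45B 2.62 and ZMAT3 0.654, so GADD45B was next to last. The ratio of CDKN1A to MDM2, the arrest gene over the p53 inhibitor, was 10.3, 14.5 and 11.04 at pH 6.0 and 6 h, against 4.48, 5.52 and 4.34 at pH 7.4 and 6 h. The 3 h ratios were 6.67, 3.93 and 5.09 at pH 6.0, against 4.04, 4.30 and 4.12 at pH 7.4, and the groups overlapped. BTG2 stood to CDKN1A as 0.886 ± 0.0446 at pH 6.0 and 6 h, against 0.327 ± 0.0185 at pH 7.4 and 6 h, and as 0.710 ± 0.116 at pH 6.0 and 3 h, against 0.398 ± 0.0804 at pH 7.4 and 3 h (SD, n = 3 each).

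**Figure D3:**
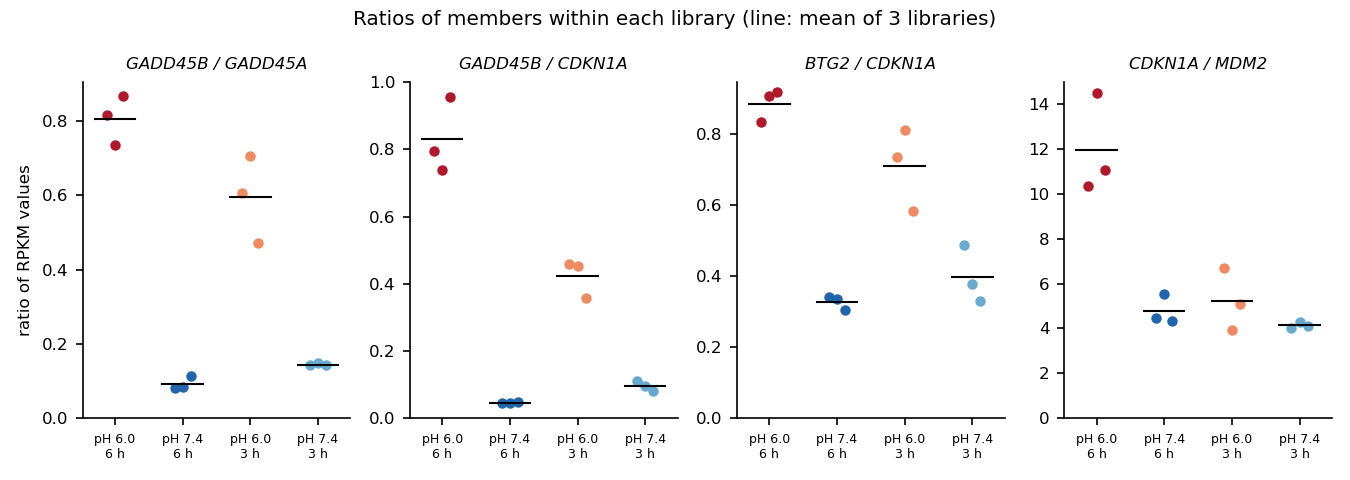
Ratios of RPKM values between members within each library (y axes, each starting at 0) in the 4 groups, in which each point is a library and the line the mean of 3. The GADD45B to GADD45A ratio averaged 0.806 at pH 6.0 and 6 h, against 0.0934 at pH 7.4 and 6 h, and the CDKN1A to MDM2 ratio was above 10 only in the pH 6.0, 6 h libraries.

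Genes with the profile nearest to a member's were found among the 10355 genes averaging 100 or more counts, as the root mean square difference of log2 CPM centred on each gene's mean over the 12 libraries. GADD45B was nearest to NR4A1, an immediate-early nuclear receptor (0.255), FOSB, a subunit of AP-1 (0.369), and RND1 (0.477). RND1 averaged 18.8 CPM at pH 6.0 and 6 h, against 1.25 at pH 7.4 and 6 h. At 3 h it averaged 4.34 CPM at pH 6.0, against 1.13 at pH 7.4. It thus met the count limit mainly through the group in which GADD45B was also highest. NR4A1 averaged 1041 CPM at pH 6.0 and 6 h, against 55.1 at pH 7.4 and 6 h, and 310 CPM at pH 6.0 and 3 h, against 43.9 at pH 7.4 and 3 h. BTG2 was nearest to JUNB, another AP-1 subunit (0.141), BCL3, a nuclear IkB family protein (0.156), and ATF3, a stress-induced bZIP factor (0.176). GADD45A was nearest to CLDN4, a tight junction claudin (0.155), PIM3, a serine/threonine kinase (0.158), and NR1D1, a nuclear receptor of the clock (0.175). CDKN1A was nearest to TRIB1, a pseudokinase (0.111), PPP1R15B, a regulator of eIF2 alpha dephosphorylation (0.121), and SOWAHC (0.152). MDM2 was nearest to SLC41A2, a magnesium transporter (0.0799), DTX3L, a ubiquitin ligase (0.0901), and DAAM1, a formin (0.0934). For scale, a gene with a flat profile would lie 1.86 from GADD45B, 0.890 from BTG2, 0.718 from GADD45A, 0.477 from CDKN1A and 0.356 from MDM2.

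Of 21 close relatives of the members 18 were tested, and 8 of them were higher and 4 lower at pH 6.0 at 6 h, where 21.9% of all genes were higher and 25.1% lower, with a median log2 fold change of 0.35. CDKN1C (p57), a relative of CDKN1A, averaged 25.1 ± 2.47 CPM at pH 6.0 and 6 h, against 10.5 ± 0.503 at pH 7.4 and 6 h (SD, n = 3 each), a log2 fold change of 1.26 ± 0.11 (adjusted p = 8.6e-09). CDKN1B (p27), the other member of that inhibitor family, averaged 52.96 ± 4.09 CPM at pH 6.0 and 6 h, against 95.4 ± 5.02 at pH 7.4 and 6 h, and was lower by -0.85 ± 0.09 (adjusted p = 3.71e-08). Among the antiproliferative relatives of BTG2, TOB1 was higher (0.72 ± 0.10), BTG3 was higher (0.48 ± 0.12), TOB2 was lower (-0.58 ± 0.08), and BTG1 averaged 96.3 CPM at pH 6.0, against 101.8 at pH 7.4, and was not called. Both tested sestrins beside SESN1 were lower in acid at 6 h, SESN2 by -0.53 ± 0.10 and SESN3 by -1.08 ± 0.16. TP53INP2, the relative of TP53INP1, was higher by 0.41 ± 0.14, opposite in sign to TP53INP1. Its 6 h groups overlapped, at 17.3 to 26.5 CPM at pH 6.0, against 14.2 to 19.3 CPM at pH 7.4. Of the ZMAT3 relatives, ZMAT2 was higher by 0.53 ± 0.09 and ZMAT5 by 0.81 ± 0.21, and ZMAT1 was not called. The other polo-like kinases tested, PLK1, PLK2 and PLK4, and the MDM2 relative MDM4 were not called, and BTG4, PLK5 and ZMAT4 fell below the count filter.

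At 3 h, 1 relative was higher and 3 were lower at pH 6.0, against 9.53% and 9.26% of all genes. TOB1 was higher by 0.86 ± 0.10 (adjusted p = 1.63e-06). SESN2 was lower by -0.86 ± 0.10, SESN3 by -0.61 ± 0.17 and CDKN1B by -0.56 ± 0.08. The count of lower relatives was 5 without the first pH 6.0, 3 h library or the second pH 7.4, 3 h library. That of higher ones was 2 without the second pH 6.0, 3 h library and with no filter.

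Some genes stand in more than 1 of the lists that follow. The counts of each list are to be read against the shares of all genes called for pH, which were 21.9% higher and 25.1% lower at 6 h and 9.53% higher and 9.26% lower at 3 h. Of 38 other established targets of p53, 36 were tested, and 10 of these were higher and 6 lower at pH 6.0 at 6 h, near the shares over all genes, with a median log2 fold change of 0.06. The higher ones with the smallest p were ATF3 (1.96 ± 0.09, 3.88-fold), SERTAD1, a cyclin-dependent kinase binding protein (1.76 ± 0.13, 3.38-fold), EPHA2, an ephrin receptor (0.98 ± 0.08), and PMAIP1, which encodes the death factor NOXA (1.00 ± 0.11). ATF3 averaged 200.1 ± 11.4 CPM at pH 6.0 and 6 h, against 51.6 ± 2.08 at pH 7.4 and 6 h (SD, n = 3 each). The lower ones were led by SUSD6 (-0.72 ± 0.09), PPM1D, the phosphatase WIP1 (-0.66 ± 0.12), the sestrin gene SESN2 and the death receptor gene TNFRSF10A (-0.44 ± 0.09). PPM1D, like MDM2, encodes an inhibitor of p53, and it averaged 11.03 ± 0.63 CPM at pH 6.0 and 6 h, against 17.4 ± 1.09 at pH 7.4 and 6 h (SD, n = 3 each).

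At 3 h, 4 of the 36 targets were higher and 5 lower at pH 6.0, with a median of -0.03. ATF3 was higher by 1.01 ± 0.09, EPHA2 by 0.47 ± 0.08, the apoptosome gene APAF1 by 0.36 ± 0.10 and PMAIP1 by 0.34 ± 0.11. SESN2, the oxidoreductase gene TP53I3 (-0.64 ± 0.12), PPM1D (-0.57 ± 0.12) and the metabolic phosphatase gene TIGAR (-0.36 ± 0.12) were lower. The count of lower targets was 8 without the first pH 6.0, 3 h library and 3 without the second or the third of that group, the first pH 6.0, 6 h library, the first or the third pH 7.4, 3 h library or the first or second pH 7.4, 6 h library, and the count of higher ones was 2 without the third pH 6.0, 3 h library. The pH effects at the 2 times differed in 14 of the 36 targets, against 29.4% of all genes, 12 with a more positive effect at 6 h, led by SERTAD1 (1.87 ± 0.19), and 2 with a more negative one, SUSD6 (-0.80 ± 0.12) and TNFRSF10A (-0.56 ± 0.13). The 2 were 4 without the first pH 6.0, 3 h library.

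Of 22 regulators of p53 tested, 6 were higher and 9 lower at pH 6.0 at 6 h, with a median of -0.16. Those lower at 6 h included the acetyltransferase EP300 (-0.80 ± 0.12), the deacetylase SIRT1 (-0.66 ± 0.09) and PPM1D. Higher were 2 ribosomal protein genes whose products bind MDM2, RPL11 (0.53 ± 0.09) and RPL5 (0.41 ± 0.10), with CDKN2A (0.74 ± 0.16), the locus of the MDM2 antagonist ARF, and the checkpoint kinase gene CHEK2 (0.50 ± 0.12). At 3 h, 4 regulators were higher, among them TP53BP1 (0.64 ± 0.09), PRKDC (0.52 ± 0.10) and ATM (0.50 ± 0.10). Lower were 3, SIRT1, PPM1D and KAT5. The higher count was 2 with the gene length spline.

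Of 11 partners of the GADD45 proteins, all tested, 5 were higher and 4 lower at pH 6.0 at 6 h, with a median of -0.05. In the kinase branch MAP2K3, which activates p38, was higher by 0.61 ± 0.09, and another kinase gene, outside the naming rule, was also higher. MAP3K4, the direct GADD45 partner, was lower by -0.35 ± 0.09, MAP2K4 by -0.63 ± 0.10, MAP2K7 by -0.59 ± 0.08 and MAPK8 (JNK1) by -0.39 ± 0.10. In the cell cycle branch CCNB1 was higher by 0.54 ± 0.08, CDK1 by 0.45 ± 0.09 and PCNA by 0.55 ± 0.13. At 3 h none of the partners was higher and 2 were lower, MAP2K7 (-0.48 ± 0.08) and MAP2K4 (-0.38 ± 0.10), and the lower count was 1 without the third pH 6.0, 3 h library. Of 7 other genes named as cyclin-dependent kinase inhibitors, among them CDKN1B, CDKN1C and CDKN3, 4 were higher and 1 was lower at 6 h. Their median was 0.43, and CDKN3 was among the higher ones. At 3 h none of these genes was higher and 2 were lower, CDKN1B and CDKN2B (-0.80 ± 0.20). Their lower count was 1 with a filter of 5 CPM.

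Of 34 cell cycle genes that p21 is known to repress through DREAM, all tested, 19 were higher and 2 lower at pH 6.0 at 6 h, against 21.9% and 25.1% of all genes, with a median log2 fold change of 0.33 beside -0.00 over all genes. CCNA2 (cyclin A2) averaged 106 ± 8.95 CPM at pH 6.0 and 6 h, against 58.8 ± 0.827 at pH 7.4 and 6 h (SD, n = 3 each), a log2 fold change of 0.84 ± 0.08. CDC20 was higher by 0.73 ± 0.11, the replication helicase gene MCM2 by 0.60 ± 0.08 and CCNB1 by 0.54 ± 0.08. The 2 lower genes were E2F1 (-0.48 ± 0.10) and CDC25A (-0.39 ± 0.11). The lower count was 4 without the first pH 7.4, 3 h library, with total counts and in a fit of only the groups compared. Between 3 h and 6 h in neutral saline 17 of the 34 fell and 1, MKI67, was higher, against 14.4% and 17.2% of all genes, with a median of -0.22 beside -0.02 over all genes. MKI67 lost its call without the first pH 7.4, 3 h or the third pH 7.4, 6 h library, and with the gene length spline. The pH effects at the 2 times differed in 18 of the 34, 16 of them more positive at 6 h, against 13.1% of all genes.

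At 3 h, 5 of the 34 cell cycle genes were higher and 2 lower at pH 6.0, with a median of 0.02. The lower ones were E2F1 (-0.76 ± 0.10) and AURKB (-0.32 ± 0.11). Their count was 1 with a filter of 5 CPM, with median-of-ratios factors and in a fit of only the groups compared. With total counts or no filter it was 4. The lower count was 5 without the first pH 6.0, 3 h library, and 1 without the second or the third pH 6.0, 3 h library, any one of the 3 pH 6.0, 6 h libraries, the first or the third pH 7.4, 3 h library or the first pH 7.4, 6 h library.

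**Figure D4:**
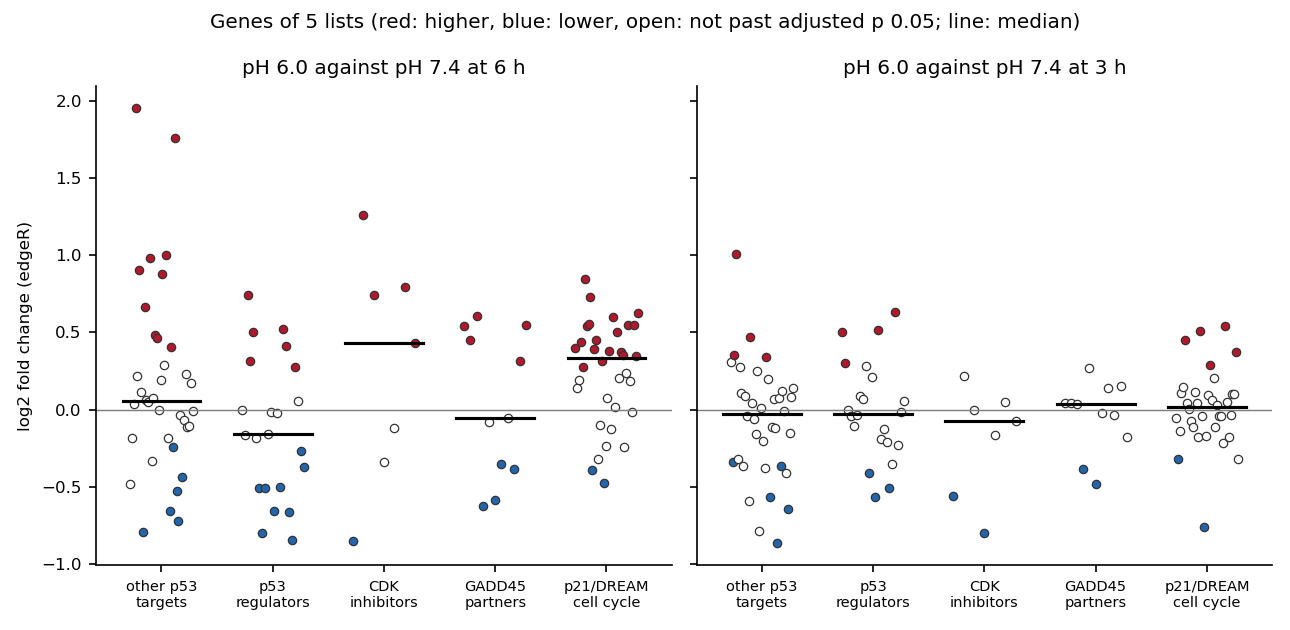
Log2 fold changes of pH 6.0 against pH 7.4 (y axis) at 6 h on the left and at 3 h on the right for the tested genes of 5 lists, in which red points were higher and blue points lower at an adjusted p under 0.05, open points were not called and lines are medians. The cell cycle list sits mostly above 0 at 6 h, with 19 of 34 genes higher, and the other p53 targets scatter on both sides, with ATF3 and SERTAD1 at the top.

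In the reference annotation the exons of CDKN1A, MDM2, SESN1 and PLK3 overlap other genes, and it is not given whether counting used the strand. On the opposite strand the overlap is 146 bases with DINOL for CDKN1A, 363 bases with AL390208.1 for SESN1 and 78 bases with TCTEX1D4 for PLK3. For MDM2 it is up to 785 bases with AC025423.4 on the opposite strand. MDM2 also shares 439 bases with AC025423.2 on the same strand, which counting by strand could not separate. GADD45A, GADD45B, BTG2, TP53INP1 and ZMAT3 had no such overlap.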

How the data were processed

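RNA was sequenced from 12 T84 libraries in 4 groups of 3, grouped by the labels. The authors deposited read counts per Ensembl gene and per-sample values, whose unit was deduced to be RPKM. With a single length per gene, solved from these same values and counts, the counts reproduced 100.0% of values within a relative tolerance of 1e-06. The lengths themselves were not checked against an independent source. Alignment used STAR and the hg19 build, with CASAVA also named, per the submitters' processing notes. Versions, annotation, counting program and use of strand were not stated in these sources. Symbols came from a names table and GENCODE 29.

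Counts were tested with edgeR 4.0.16 in R 4.3.3 (TMM scaling, default low-count filter, robust quasi-likelihood F test) in 1 fit of all libraries with 8 residual degrees of freedom and Benjamini-Hochberg adjustment over 15630 genes. CPM values use TMM-scaled totals. A standard error is the log2 fold change over the square root of F. In simulated counts for pH at 6 h, 200 of 200 genes changed 2-fold were recovered, with 9 false calls among 15630 genes. The changed genes were drawn from those averaging 100 or more counts. Every simulated gene had the same biological coefficient of variation, 9.29%. Recovery of low-count genes or of genes with a larger spread was therefore not measured. No 2 libraries of a group were copies: their counts differed beyond sampling noise, with a chi-square of 5.40 to 19.5 per degree of freedom.

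The named genes are all 9 members, their relatives, up to 4 called genes per direction of each other list with the smallest p, and the 3 genes nearest in profile to GADD45A, GADD45B, CDKN1A, MDM2 and BTG2. Of the list entries 169 matched a symbol and 1 did not. A regulator that this rule names is not reported here. The members and lists were chosen with earlier results of these data known. Alternatives were DESeq2 1.42.0, median-of-ratios factors, total counts, all genes unfiltered, a minimum of 5 CPM reached by 3 libraries, fitting the compared groups only, the replicate number as a block, a gene length spline with 5 degrees of freedom, and each library left out.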

Additional observations from a re-analysis of the deposited data

Results flagged for a closer look

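The pH effect at 6 h differed from that at 3 h, by the interaction term of edgeR's fit over all genes, in 5 of the 9 members. The difference of the 2 log2 fold changes (6 h minus 3 h) was 2.16 for GADD45B, 1.03 for GADD45A and 0.75 for BTG2, whose excess in acid was larger at 6 h. It was -0.89 for MDM2 and -0.91 for TP53INP1, whose pH effect was more negative at 6 h. MDM2 did not differ by pH at 3 h, at -0.03 (adjusted p = 0.887 in the same fit). The TP53INP1 call was lost without any one of several libraries. It was also lost with the gene length spline (adjusted p = 0.0896) and with the replicate number as a block (adjusted p = 0.0513). In the same test 29.4% of all genes were called. In all 3 pH 6.0, 6 h libraries GADD45B, GADD45A and BTG2 were above, and MDM2 and TP53INP1 below, every pH 7.4, 6 h library. The libraries of these groups did not overlap in 56.6% of all genes. That separation concerns 6 h alone and not the difference between the times.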

How the results depend on the processing

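Of 891 recomputed log2 fold changes of the members, 818 kept their direction and their side of the threshold, 29 lost and 25 gained a call, and 19 of uncalled values changed sign. Called members for pH at 3 h, 3 in the test as reported, were 5 with a filter of 5 CPM and 5 with the gene length spline. The cause was not tested. Without single libraries the counts of called members were 2 to 4 for pH at 3 h, 7 to 7 for pH at 6 h, 5 to 7 for time at pH 6.0, 5 to 6 for time at pH 7.4 and 4 to 6 for the difference of pH effects. Over all genes they were 1648 to 3617, 6203 to 7566, 1915 to 3408, 3309 to 5211 and 3457 to 5136 in the same order of comparisons. The count of 2937 for pH at 3 h became 1661 without the first pH 7.4, 3 h library and 1649 and 1648 without the second and the third pH 6.0, 3 h libraries, and that of 3050 for time at pH 6.0 became 1915 without the third pH 6.0, 3 h library.

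Signs changed for ZMAT3 with total counts (-0.007 for pH at 3 h, -0.042 for time at pH 7.4), with no filter (-0.009 for pH at 3 h), with the spline (-0.134 for pH at 3 h, 0.043 for pH at 6 h, -0.333 for time at pH 7.4, 0.178 for the difference of pH effects) and without single libraries (-0.077 and -0.047 for pH at 3 h, up to 0.116, -0.038, -0.043 and -0.069 for time at pH 7.4, up to 0.195). They changed for MDM2 at 3 h with the 5 CPM filter (0.003) and without 2 libraries (0.094 and 0.011, in a leave-one-out range of -0.099 to 0.094), for CDKN1A's difference of pH effects with the spline (-0.040) and for that of SESN1 without 3 libraries (-0.032, -0.028 and -0.021, up to 0.136 without others). With total counts the split of higher to lower calls over all genes was 1194 to 1752 for pH at 3 h, against 1489 to 1448 as reported, 773 to 2499 for time at pH 6.0, against 1351 to 1699, and 2093 to 3179 for time at pH 7.4, against 2695 to 2247.

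Of 18 pairs of libraries with the same replicate number, 2 correlated above 0.1 in their deviations from group means (range -0.127 to 0.226). Of the 12 libraries, 7 deviated most like their own number. The labels do not say what the replicate numbers stand for, and whether they mark a pairing was not tested. With the replicate number as a block, members called were 2, 7, 6, 5 and 4 for the 5 comparisons in the order above, and all genes called were 3231, 7457, 3289, 5115 and 4774. TP53INP1 for pH at 3 h (adjusted p = 0.0639), GADD45A for time at pH 7.4 (0.0576) and TP53INP1's difference of pH effects (0.0513) were the member calls lost under the block. The low counts of ZMAT3, PLK3 and TP53INP1 limit their precision.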
